A study of Mus musculus with 6 samples.

Results

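Semaphorins, plexins and neuropilins form a ligand and receptor system first known for steering growing axons. The 10 genes described here are Sema4a, Sema4b, Sema4c, Sema4d and Sema5b among the semaphorins, the plexins Plxna1, Plxnb2 and Plxnd1, and the neuropilins Nrp1 and Nrp2. They are the rows of the deposited FPKM annotation that carry these gene names, 10 of 25032 genes with a read, and their reads were taken by gene identifier. They were chosen by their measured difference in reads and FPKM between the groups of this study, so that difference is given as a description, and no test of it is reported for them. Poly(A) RNA was measured in BV2, a mouse microglial cell line, in 3 libraries labelled as overexpressing GFP, a fluorescent control protein, and 3 labelled as overexpressing TDP43-NLS. The design text describes the second construct as TDP-43 with a mutated nuclear localisation signal, and the title places the study in microglial necroptosis. The labels give no promoter, delivery method, time after delivery or species of the construct, and nothing says that the 3 libraries of a group were separate cultures. The p-values below therefore rest on library-to-library spread alone, and that spread may be technical.

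Semaphorins carry an extracellular sema domain and are secreted or bound to the membrane. Plexins receive them through a sema domain of their own, and the cytoplasmic part of a plexin acts on small GTPases that control adhesion and the actin cytoskeleton. Neuropilins have a short cytoplasmic tail and serve as co-receptors, for secreted semaphorins together with plexins and for vascular endothelial growth factors. In myeloid cells, including microglia, the system is known for effects on migration, cell contact and immune activation.

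The libraries held 15062131 to 18005592 reads, and the first principal component, with 85.8% of the variance, separated the groups. GFP replicate 2 stood apart from the other GFP libraries: its chi-square per degree of freedom against them was 6.67 and 6.68, whereas GFP replicates 1 and 3 had 1.18. Reads of Tardbp, the gene of TDP-43, numbered 7229, 7160 and 8154 under the GFP label and 5671, 6506 and 6633 under the TDP43-NLS label. It was lower under its own label (log2 fold change -0.26, standard error 0.05, edgeR adjusted p = 0.000291), and the count table has no row for a construct, so every direction below rests on the labels. The microglial and macrophage markers Csf1r (485 and 427 CPM), Cd68 (886 and 832 CPM) and Ptprc (235 and 234 CPM) were abundant in both groups (GFP first; CPM are reads scaled to a common depth with TMM factors). P2ry12 (1.27 and 0.261 CPM) and Tmem119 (2.19 and 3.79 CPM), markers of homeostatic microglia, were low, and Sall1 had no read. The 15 markers of this list summed to 4270 to 4370 CPM in the GFP libraries and 5100 to 5280 CPM in the others. Neuron, astrocyte, oligodendrocyte, endothelial and fibroblast markers were low, each list summing to at most 5.32 CPM in any library, with no read of Rbfox3, Snap25, Aqp4 and Mog. Of these, 2 lists differed between the groups without overlap. The neuron list summed to 0.236 to 0.569 CPM against 1.21 to 1.29 CPM, mostly Tubb3, with Syt1 also at 0. The endothelial list summed to 0.626 to 1.09 CPM against 3.97 to 4.55 CPM. Its reads over the groups were 8 and 75 for Pecam1, 18 and 93 for the VEGF receptor Kdr, and 1 and 32 for Tek. Cdh5 had 18 and 13, and Cldn5, an endothelial junction protein, 0 and 1. The part of these traces in the results below was not tested. Below, GFP values come first, and a value after ± is the SD over the 3 libraries of a group.

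TDP-43 is known to bind UG-rich RNA, so TG runs in the transcripts of the 10 genes are shown here as sequence context. A run was defined as TGTGTGTG or longer on the transcript strand, read in the longest protein-coding GENCODE M21 transcript of each gene (build GRCm38). Of the 10 genes, 6 held a run: Sema4c, Sema4d, Plxna1, Plxnb2, Plxnd1 and Nrp2. Over all genes, 21.9% of the longest protein-coding transcripts held one. Among transcripts within 10% of the same length, 28.9% held one for Sema4c, 54.6% for Plxna1 and 45.9% for Nrp2. A run of 8 bases or more is thus not rare at these lengths. How often runs as long as those of Sema4c and Nrp2 occur was not counted. The runs of the genes with the largest higher values and the longest run are printed with flanks in lower case and the TG run in capitals, at most 22 bases of it.
Sema4c: agaaTGTGTGTGTGTGTGTGTGTGTGttgt
Plxna1 coding: cctggtggaggTGTGTGTGcgggactgctc
Plxna1 untranslated: tatatatataTGTGTGTGTGgccctggccc
Nrp2: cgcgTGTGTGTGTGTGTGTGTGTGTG
The Sema4c run of 22 bases lies in the 3′ untranslated part of exon 16 of 16 (chr1:36549189-36549210, minus strand). The first Plxna1 run lies in coding exon 14 of 32 (chr6:89334705-89334712, minus strand) and the second in the 3′ untranslated part of exon 32 (chr6:89318278-89318287). The Nrp2 run is 52 bases long, of which the first 22 are shown, and lies in the 3′ untranslated part of exon 16 of 16 (chr1:62817580-62817631, plus strand), followed by another of 38 bases. No run was found in Sema5b, Sema4a, Sema4b or Nrp1. The transcripts searched for these 4 genes were shorter than the deposited gene lengths, at 4646 of 7080 bases for Sema5b, 3205 of 5406 for Sema4a, 3949 of 5645 for Sema4b and 3597 of 9785 for Nrp1, so parts of each were not searched. These matches are letters in a sequence and show no binding.

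Within the set, 6 genes were higher in every library labelled TDP43-NLS than in any GFP library (Plxna1, Sema4c, Sema4a, Nrp2, Plxnd1 and Nrp1), 2 were lower in every one (Sema5b and Sema4b), and the groups overlapped for Sema4d and Plxnb2. The groups thus did not overlap in 8 of the 10 genes, against 63.2% of all tested genes. The choice of the genes used this contrast, so nothing is read from these counts. For the genes outside the set, a call is a Benjamini-Hochberg adjusted p under 0.05 in edgeR's quasi-likelihood test over all 13199 tested genes, where 57.5% of genes were called, 29.3% higher and 28.2% lower. All 10 passed the filter on low counts, Sema5b only through the GFP libraries. Their median log2 fold change was 0.33, and that of all tested genes 0. Absolute log2 fold changes of at least 1 were seen in Sema5b, Plxna1 and Sema4c, and in 10.0% of all tested genes. As in any bulk sample, fewer cells expressing a gene and less RNA per cell cannot be told apart.

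**Figure D1:**
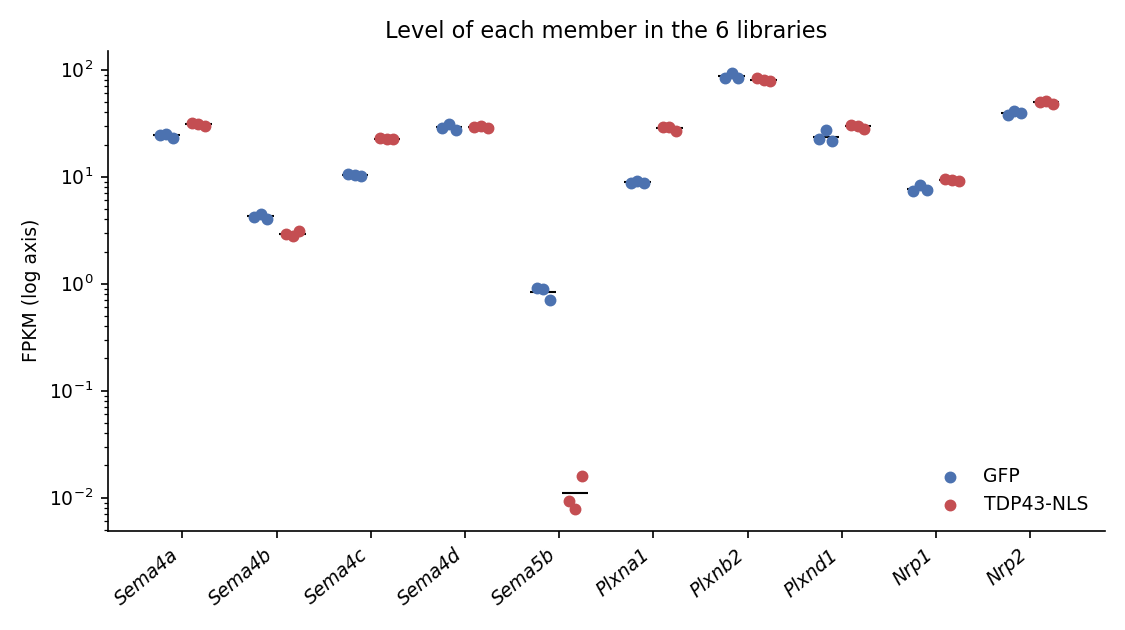
Deposited FPKM (log axis) of the 10 genes in the 3 GFP libraries (blue) and the 3 libraries labelled TDP43-NLS (red), with the group mean as a line. Mean levels are 0.839 and 0.0111 FPKM for Sema5b and 8.90 and 28.3 FPKM for Plxna1, and Plxnb2 is the highest in both groups.

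Sema5b, a membrane semaphorin with thrombospondin repeats that guides neurites in the retina, was the one gene of the set that was nearly absent in one group. It lies at chr16:35361515-35485102 on the plus strand (ENSMUSG00000052133, GRCm39). The GFP libraries held 99, 106 and 87 of its reads, and those labelled TDP43-NLS 1, 1 and 2. Every GFP library was far above every other library. In CPM the levels were 5.86 ± 0.788 and 0.0795 ± 0.0313, and the fitted log2 fold change was -6.06 (standard error 0.31). A DESeq2 fit gave -6.20 with a standard error of 0.76. The smaller error is thus likely too small for a group with 4 reads. The summed reads were 292 and 4. Their ratio, scaled by depth and TMM factors, was 73.0 with a 95% exact binomial interval of 28.2 to 270. That interval covers counting error only and, as the gene was chosen by this difference, is no test of it. Its level was low even in the GFP group, at 0.839 ± 0.114 FPKM (reads scaled by gene length and library depth). The mean over all libraries was above that of only 8.0% of tested genes.

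The RefSeq promoter of Sema5b, the 250 bases before and 50 after the start (chr16:35541112-35541411, GRCm38.p6, plus strand), is shown because its gene had the largest difference of the set. CG dinucleotides are in capitals.
Sema5b promoter: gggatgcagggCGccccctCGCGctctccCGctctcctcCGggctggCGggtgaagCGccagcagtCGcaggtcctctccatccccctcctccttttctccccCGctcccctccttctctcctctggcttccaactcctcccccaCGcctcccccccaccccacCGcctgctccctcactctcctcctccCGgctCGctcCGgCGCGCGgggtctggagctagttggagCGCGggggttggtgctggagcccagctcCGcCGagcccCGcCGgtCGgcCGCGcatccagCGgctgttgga
It holds 27 CG dinucleotides, more than 84.5% of the 32851 promoters in the table, whose median is 7. CG-rich starts were not limited to this gene: Nrp2 had 37 and Plxnd1 23, whereas the 3 listed Sema4d starts had 2 to 3. Of the 10 genes, 9 had an entry. No methylation or binding was measured here.

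Of the 4 class 4 semaphorins in the set, membrane proteins whose extracellular part can be shed, Sema4c differed most. Sema4c (chr1:36587720-36597430, minus strand, ENSMUSG00000026121), a ligand of plexin B2, had 48.6, 47.1 and 46.4 CPM in the GFP libraries and 107, 105 and 104 CPM in the libraries labelled TDP43-NLS. The libraries of each group lay close together, and the groups were far apart. The log2 fold change was 1.15 (standard error 0.05), a 2.22-fold higher level.

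Sema4a, known as a costimulator of T cells (chr3:88343266-88368489, minus strand, ENSMUSG00000028064), had 132, 135 and 123 CPM and then 175, 169 and 163 CPM. The groups did not overlap, and the difference was modest, 1.30-fold (log2 fold change 0.38, standard error 0.05). Sema4b (chr7:79836589-79876275, plus strand, ENSMUSG00000030539) went the other way, with 23.5, 25.1 and 22.7 CPM against 16.6, 15.9 and 17.7 CPM. Every library labelled TDP43-NLS was below every GFP library, with a log2 fold change of -0.50 (standard error 0.07).

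Sema4d, also called CD100, the best-studied immune semaphorin (chr13:51839565-51947783, minus strand, ENSMUSG00000021451), had 216, 234 and 209 CPM in the GFP libraries and 229, 233 and 224 CPM in the others. The groups overlapped, because GFP replicate 2 was the highest library of all. The log2 fold change was 0.06 (standard error 0.05), and 0.10 without GFP replicate 2.

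Plxna1, a plexin that can partner with Trem2 and Tyrobp in myeloid cells, showed the largest higher value of the set. It lies at chr6:89293296-89339602 on the minus strand (ENSMUSG00000030084). The GFP libraries had 78.5, 81.0 and 79.1 CPM, and the libraries labelled TDP43-NLS 268, 269 and 243 CPM. The lowest of the latter was thus well above the highest GFP library. The log2 fold change was 1.71 (standard error 0.05), or 3.27-fold. On the opposite strand within it lies Gm26811, a gene with 84 reads in all libraries and a log2 fold change of 2.41. The counting is not stated to use strand, so reads of the 2 strands cannot be told apart; Plxna1 had 3981 and 12986 reads in the groups. Likewise D430040D24Rik, with 99 reads, overlaps Sema4c, and Gm37121, with 162 reads on the same strand, overlaps Nrp2. Gm5963, with 9 reads on the opposite strand, overlaps Sema5b, which itself had 292 and 4 reads in the groups. Gm44207, with 31 reads, also overlaps Plxna1, Gm45206, with 8, overlaps Sema4b, and Gm29083, with 3, overlaps Nrp2.

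Plxnb2, the plexin that receives Sema4C and other class 4 semaphorins (chr15:89039752-89064991, minus strand, ENSMUSG00000036606), was the most abundant gene of the set per length, at 87.4 ± 5.77 FPKM and 80.9 ± 2.60 FPKM. It had 640, 716 and 644 CPM against 656, 628 and 615 CPM. The groups overlapped, with GFP replicate 2 again the highest. The log2 fold change was -0.08 (standard error 0.05), and -0.02 without that library.

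Plxnd1, a plexin best known from blood vessel patterning as the receptor of Sema3E (chr6:115931772-115971966, minus strand, ENSMUSG00000030123), had 161, 195 and 156 CPM in the GFP libraries and 226, 220 and 209 CPM in the others. The groups did not overlap, but GFP replicate 2 lay between the other GFP libraries and the second group. The log2 fold change was 0.36 (standard error 0.07), and 0.46 without GFP replicate 2. In 8 of the 10 genes GFP replicate 2 was the highest GFP library.

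Both neuropilins were modestly higher. Nrp2, a co-receptor for Sema3F and VEGF-C (chr1:62742444-62857854, plus strand, ENSMUSG00000025969), had 446, 484 and 459 CPM and then 606, 610 and 577 CPM. Nrp1, a co-receptor for Sema3A and VEGF-A (chr8:129085085-129229844, plus strand, ENSMUSG00000025810), had 71.4, 80.3 and 72.3 CPM and then 94.1, 92.2 and 89.7 CPM. Neither gene overlapped between the groups. The log2 fold changes were 0.37 (standard error 0.04) for Nrp2 and 0.30 (standard error 0.05) for Nrp1. With Sema4a at 0.38 and Plxnd1 at 0.36, 4 genes of the set had log2 fold changes from 0.30 to 0.38.

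**Figure D2:**
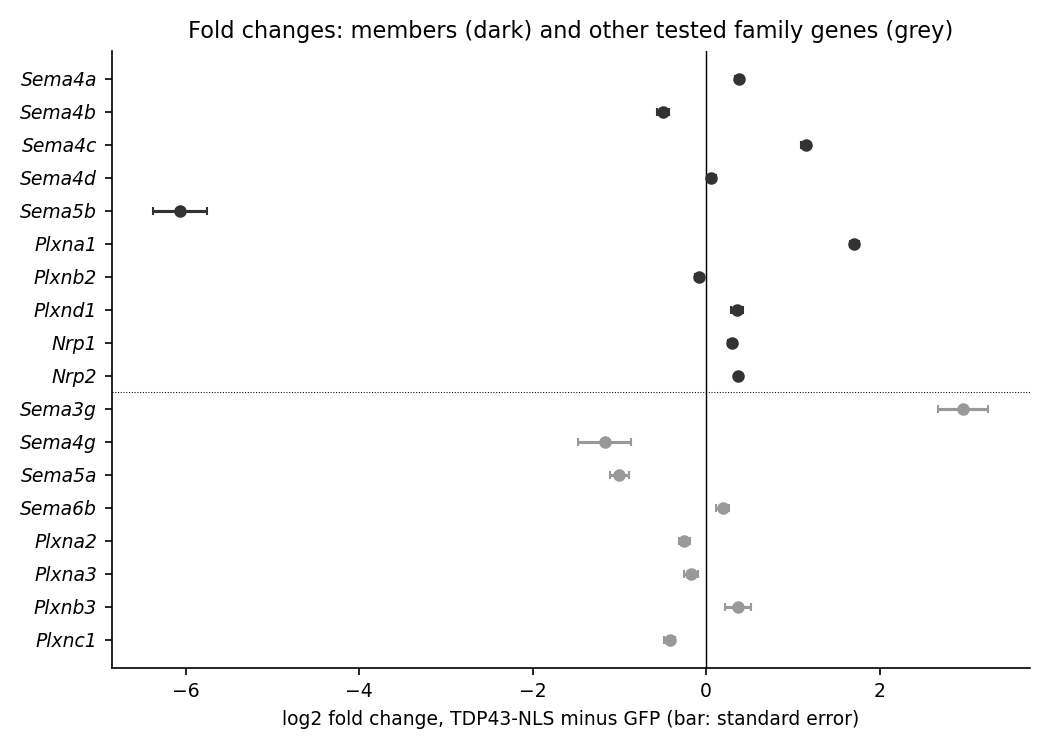
Log2 fold change (libraries labelled TDP43-NLS minus GFP) with its standard error for the 10 genes (dark, above the dotted line) and the 8 other tested family genes (grey). Sema5b lies at -6.06 and Plxna1 at 1.71; among the others Sema3g lies at 2.96 and Sema4g at -1.17.

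Per length, the receptors dominated the set. In the GFP group the order by FPKM was Plxnb2, Nrp2 (39.6 ± 1.73), Sema4d (29.0 ± 1.74), Sema4a (24.3 ± 1.15), Plxnd1 (23.6 ± 3.01), Sema4c (10.4 ± 0.257), Plxna1 (8.90 ± 0.164), Nrp1 (7.73 ± 0.521), Sema4b (4.26 ± 0.228) and Sema5b. Only Sema4a and Plxnd1 were neighbours whose mean ± SD ranges overlapped (n = 3). In the libraries labelled TDP43-NLS, Plxnb2 and Nrp2 (49.8 ± 1.54) kept the first ranks. Behind them Sema4a (30.9 ± 1.03), Plxnd1 (29.5 ± 1.15), Sema4d (29.4 ± 0.615) and Plxna1 (28.3 ± 1.63) formed a run in which each neighbour overlapped the next. Sema4c followed at 22.6 ± 0.256 FPKM. Plxna1 thus stood beside Sema4a, Plxnd1 and Sema4d, which were far above it in the GFP group.

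The makeup of the classes differed accordingly. Of the FPKM summed over Plxna1, Plxnb2 and Plxnd1, Plxna1 took 7.64%, 6.97% and 7.70% under the GFP label and 20.4%, 21.0% and 19.9% under the TDP43-NLS label. Plxnb2 took 72.9% ± 0.643 and 58.3% ± 0.687, and Plxnd1 19.7% ± 1.03 and 21.3% ± 0.108 on average. The same shift appears over all 9 plexins with a read, where Plxna1 took 6.57% ± 0.352 and 18.7% ± 0.555. Within the 4 class 4 semaphorins, Sema4c went from 15.4% ± 0.625 to 26.4% ± 0.185 and Sema4d from 42.6% ± 0.808 to 34.3% ± 0.505, while Sema4a stood at 35.8% ± 0.392 and 35.9% ± 0.609. The neuropilin balance was nearly the same in both groups, with Nrp2 at 83.7% ± 0.360 and 84.3% ± 0.213. Summed FPKM were 68.0 ± 3.13 and 85.8 ± 1.55 for the class 4 semaphorins, 120 ± 8.91 and 139 ± 5.11 for the plexins, and 47.3 ± 2.24 and 59.1 ± 1.73 for the neuropilins.

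**Figure D3:**
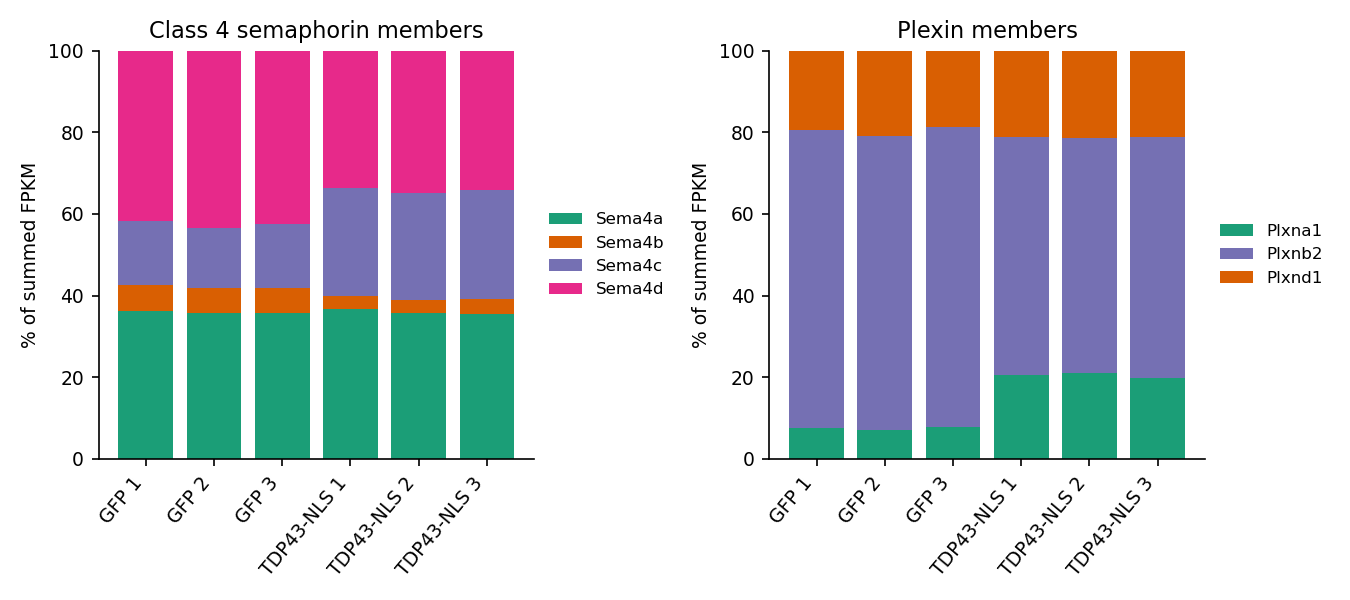
Share of the summed FPKM taken by each class 4 semaphorin (left) and each of the 3 plexins (right), one stacked bar per library. Sema4c takes 15.4% on average in the GFP libraries and 26.4% in those labelled TDP43-NLS, and Plxna1 takes 7.44% and 20.4%.

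Several usual partners of the 10 genes had next to no reads. Of the 15 other semaphorins 5 had no read in any library: Sema3a, Sema3d, Sema3e, Sema6a and Sema6d. No read in a group of 3 libraries allows a level of up to 0.06 CPM, or 3 reads over the group. Thus Sema3e, the ligand of plexin D1, and Sema3a, the ligand of neuropilin 1, were not detected at this depth. Sema3f, the ligand of neuropilin 2, had 12 reads under the GFP label and 1 under the other, Sema3b 14 and 7, Sema3c 1 and 1, Sema4f 3 and 12, Sema6c 6 and 11, and Sema7a 1 and 6; these genes were too low to be tested. Plxnb1, the high-affinity receptor of Sema4D, had 0 and 2 reads, and Plxna4 0 and 4.

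Of the 15 other semaphorins, 4 could be tested, and 2 rose and 2 fell. Reads of Sema3g, a secreted semaphorin, numbered 4, 3 and 4 and then 26, 31 and 31. It rose by a log2 fold change of 2.96 (standard error 0.29) from a very low level. Sema3g passed the filter on low counts only through the libraries labelled TDP43-NLS, so its rise is given as a description, without a p-value. Sema5a, the closest relative of Sema5b, had 152, 198 and 195 reads against 80, 105 and 88, and fell to 0.501 times its GFP level (log2 standard error 0.11, edgeR adjusted p = 5.15e-06). Both class 5 semaphorins were thus lower, by very different amounts. Sema4g had 52 and 23 reads over the groups and passed the filter only through the GFP libraries. It fell by 1.17, a call that DESeq2 did not make (adjusted p = 0.0722). Sema6b had 36.5 ± 2.65 and 41.7 ± 3.16 CPM in overlapping groups. Its log2 fold change of 0.19 had an adjusted p of 0.032 in edgeR, which was 0.104 without GFP replicate 1, 0.117 without GFP replicate 3 and 0.142 without TDP43-NLS replicate 2.

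Of the 6 other plexins, 4 could be tested, with log2 fold changes from -0.42 to 0.37. Plxnc1, the receptor of Sema7A on leukocytes, went down from 95.5 ± 8.78 to 71.6 ± 1.79 CPM (log2 fold change -0.42, edgeR adjusted p = 7.25e-05). Plxna2 dropped from 33.8 ± 1.16 to 28.5 ± 0.588 CPM (log2 fold change -0.25, adjusted p = 0.00242). Plxna3 stood at 13.7 ± 0.408 and 12.2 ± 0.534 CPM, with an adjusted p of 0.0857. Plxnb3 had 3.64 ± 0.138 and 4.66 ± 0.750 CPM, with a log2 fold change of 0.37 and an adjusted p of 0.0484. That call ended on leaving out any single library other than TDP43-NLS replicate 1, with adjusted p from 0.0758 to 0.199. The class A plexins that could be tested therefore did not move as one: Plxna1 was higher, Plxna2 fell and Plxna3 was not called.

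Co-receptors and other semaphorin receptors moved both ways. Of 21 listed genes 14 could be tested, of which 7 rose and 5 fell, with a median log2 fold change of 0.29. Over all tested genes the median is 0 and 57.5% were called, which also holds beside the lists that follow. The partners of plexin A1 in myeloid cells fell: Trem2, a lipid-sensing receptor, from 237 ± 1.82 to 188 ± 3.04 CPM (log2 fold change -0.33, edgeR adjusted p = 7.51e-06), and Tyrobp, its signalling adaptor DAP12, from 217 ± 19.1 to 184 ± 8.12 CPM (log2 fold change -0.24, adjusted p = 0.00395). Plxna1 and its partners thus differed in opposite directions. Cd72, a receptor of Sema4D on immune cells, fell from 24.0 ± 2.64 to 16.7 ± 1.07 CPM (log2 fold change -0.52, adjusted p = 0.000214). The other 2 that fell were Nrcam, an adhesion protein, from 11.4 ± 2.32 to 4.75 ± 0.809 CPM (log2 fold change -1.28, adjusted p = 1.56e-05), and Itgav, an integrin subunit, from 112 ± 6.85 to 77.9 ± 3.45 CPM (log2 fold change -0.52, adjusted p = 2.7e-06). Cd72, Nrcam and Itgav were outside the rule for named genes and were added after their values were seen, to name all 5 that fell.

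Of the 7 genes of that list that rose, Met, the hepatocyte growth factor receptor, which can associate with class B plexins, went from 11.7 to 44.5 CPM (log2 fold change 1.93). L1cam, an adhesion protein that pairs with neuropilin 1, rose by 1.82, Itgb3, an integrin subunit, by 2.90 and Itga5, a fibronectin receptor subunit, by 0.96. Kdr, a VEGF receptor, rose by 2.34 but had only 18 and 93 reads over the groups. It passed the filter on low counts only through the libraries labelled TDP43-NLS. Itgb1, the common integrin chain, rose by 0.12, a call that ended when libraries were scaled by their totals (adjusted p = 0.067 in edgeR). Timd2, a receptor of Sema4A, Erbb2, Itga1 and Chl1 had no read.

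Other ligands of the neuropilins moved mostly upwards. Of 9 listed, 7 could be tested, and 5 rose and 1 fell (median log2 fold change 0.34). Vegfa, the ligand of neuropilin 1, rose from 46.7 ± 6.52 to 86.6 ± 5.37 CPM (log2 fold change 0.89, edgeR adjusted p = 8.74e-07), while its relative Vegfb fell from 76.6 ± 7.78 to 53.8 ± 2.42 CPM (log2 fold change -0.51). Pgf, placental growth factor, rose from 0.438 to 2.08 CPM and Pdgfb from 19.1 to 44.5 CPM. Pgf passed the filter on low counts only through the libraries labelled TDP43-NLS. Lgals1, a galectin that binds neuropilin 1, had 709 ± 109 and 756 ± 38.2 CPM (adjusted p = 0.367, and 0.0473 with no filter on low counts). Tgfb1 rose by 0.20 (adjusted p = 0.0272), and lost its call without GFP replicate 1 or 3 or without TDP43-NLS replicate 1 or 2 (adjusted p from 0.0631 to 0.128). Vegfc and Vegfd, ligands of neuropilin 2 and Flt4, had no read. Without TDP43-NLS replicate 1 the list had 3 genes higher and 1 lower.

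Proteases that process semaphorins were all called, in both directions: of 5 tested out of 8 listed, 3 rose and 2 fell (median log2 fold change 0.24). Adam8, a sheddase of myeloid cells, rose from 222 ± 4.26 to 666 ± 23.1 CPM (log2 fold change 1.59, edgeR adjusted p = 5.33e-12). Adam17, a sheddase of many membrane proteins, rose by 0.24 and Furin, the proprotein convertase that cleaves secreted semaphorins, by 0.44. Adam10, another sheddase, fell by 0.46 and Pcsk7, a convertase, by 0.27. Mmp14, a membrane metalloprotease that can shed Sema4D, had 3 and 5 reads, below the filter.

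Small GTPases of plexin signalling and their regulators moved both ways. Of 23 listed genes 21 could be tested, of which 10 rose and 6 fell (median log2 fold change 0.13). Rras, R-Ras, a substrate of the plexin GAP domain, rose from 4.17 ± 0.421 to 12.1 ± 0.812 CPM (log2 fold change 1.54, edgeR adjusted p = 9.42e-08), and Mras rose by 2.33 from a low level of 0.236 CPM. Their relative Rras2, or TC21, went from 165 reads in the GFP group to 5 in the other (log2 fold change -4.94, standard error 0.38). Like Sema5b it was thus nearly without reads there. Rras2 passed the filter on low counts only through the GFP libraries, and Mras only through the others. Their values are therefore given as a description, without a p-value. Rapgef2, an exchange factor for Rap, rose by 1.34, and Rap1b, a Rap GTPase cleared by plexins, by 0.20. Rac2, the Rac of blood cells, rose by 0.43, while Rac1 fell by 0.14. Gipc1, the PDZ adaptor of the neuropilin tail, rose by 0.15. When tested against a log2 fold change of 0.5, Rac1, Rac2, Rap1b and Gipc1 were not called. Of the genes named from the other lists, the same held for Trem2, Tyrobp, Cd72, Itgav, Itgb1, Vegfb and Tgfb1. Furin, Adam17, Adam10, Pcsk7, Ssh1, Mical2 and Pak2 were not called in that test either. The same was true of the family genes Sema4g, Sema6b, Plxna2, Plxnb3 and Plxnc1.

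Of 29 listed cytoplasmic effectors 25 could be tested, of which 9 rose and 5 fell (median log2 fold change 0.11), and 14 rose and 6 fell without GFP replicate 2. Cdk5, a kinase of semaphorin signalling in neurons, rose from 17.9 ± 0.634 to 38.7 ± 1.51 CPM (log2 fold change 1.11, edgeR adjusted p = 7.39e-09). Ptk2b, the focal adhesion kinase Pyk2, rose by 0.79, Ssh1, a phosphatase that activates cofilin, by 0.61 and Mical2, an actin-oxidising enzyme, by 0.40. Pak2, a kinase below Rac, fell by 0.25. The most abundant, Cfl1 (cofilin), had 920 ± 19.9 and 895 ± 20.1 CPM (adjusted p = 0.407). Tln1 (talin), with means of 513 and 549 CPM, had an adjusted p of 0.0967, which became 0.000699 without GFP replicate 2, 0.0425 without TDP43-NLS replicate 3 and 0.0457 with no filter on low counts. Msrb1, which reverses the oxidation of actin by Mical proteins, had 65.1 ± 6.37 and 71.0 ± 4.45 CPM (adjusted p = 0.14, and 0.0458 without GFP replicate 3). Of the collapsin response mediators, Dpysl3 and Dpysl4 had no read.

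**Figure D4:**
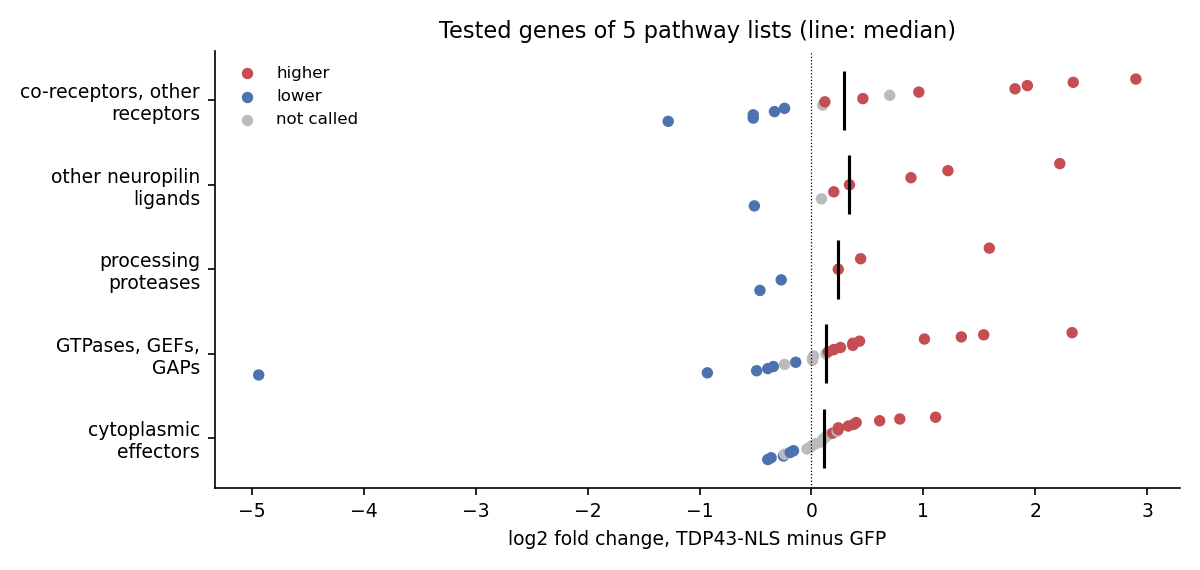
Log2 fold change (libraries labelled TDP43-NLS minus GFP) of each tested gene in 5 lists of the semaphorin pathway, with the list median as a black line and calls in colour. Medians lie between 0.11 and 0.34, with Rras2 at -4.94 far from the rest.

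The values of neighbouring genes are given as context. Sema5b lies on chromosome 16, whose 398 other tested genes had a median log2 fold change of -0.21, with 51.3% of them called lower. The 16 tested genes within 1 Mb of Sema5b had a median of 0.06 and ranged from -0.90 to 3.88. Within 0.5 Mb the median was -0.04. Around Plxna1, 11 tested genes had a median of 0.10, and the 8 within 0.5 Mb a median of 0.43, with 5 of them higher. Both sets include Gm26811, at 2.41, which overlaps Plxna1 and so is not a separate neighbour. A further 20 around Sema4c, with the overlapping D430040D24Rik among them, had a median of -0.08 and a maximum of 1.08. The 5 tested genes near Sema4d had a median of -0.53, and the 3 within 0.5 Mb -1.02, whereas Sema4d itself stood at 0.06. The part of the chromosome in the value of Sema5b was not tested.

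Profiles over the 6 libraries were compared by the Euclidean distance between log2 CPM values, with 0.5 CPM added and each gene centred on its mean. The genes most like Plxna1 were Rbpms2 (distance 0.104), Xdh (0.115) and L1cam (0.132), the last also in the list of co-receptors. Rbpms2 had only 47 and 214 reads over the groups, with a log2 fold change of 2.18 against 1.71 for Plxna1. Those most like Sema5b were Ina (0.395), Ctdspl (0.488) and Mexis (0.507), which had 741, 402 and 1088 reads under the GFP label and 55, 19 and 81 under the other. The added 0.5 CPM compresses the change of genes as low as Sema5b or Rbpms2. These likenesses rest on 6 libraries in 2 groups and follow mostly from the difference between the groups.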

How the data were processed

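Raw counts of reads for 55359 genes were deposited in one table. FPKM, the same reads scaled by gene length and library depth, were deposited in another for the 25032 genes with a read. FPKM recomputed from the counts, the column totals and 1 length per gene differed by a relative 7.73e-14 at most, so FPKM is a rescaling of the counts. HISAT2 2.1.0, HTSeq 0.6.0, Bowtie2 2.2.3 and GRCm39 are named in the submitters' processing notes, without roles. Neither the strand setting nor the treatment of reads matching several genes was stated in the labels.

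Counts were tested with edgeR 4.0.16 (R 4.3.3): filterByExpr at 10 reads and 15 in total, TMM scaling, two-sided quasi-likelihood test with the group as the only term, and Benjamini-Hochberg adjustment over 13199 genes. A standard error is the log2 fold change divided by the square root of F. It can be too small where a group has few reads, as for Sema5b, Rras2 and Sema3g. Alternatives used DESeq2 1.42.0 and limma 3.58.1, the latter on log2(FPKM + 1) and log2(FPKM + 0.1) for genes with a mean of at least 0.5. A simulation over 13018 genes changed 50 genes per fold, all above a mean of 1 CPM. There the test recovered 54% of true changes of 1.25-fold, 90% at 1.5-fold, 96% at 2-fold and 100% at 4-fold. Far fewer genes changed in it than the 57.5% called in the data, so these shares need not hold for the real comparison or for lower genes.

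The 10 genes and the pathway lists were chosen with earlier results of these data known. Named are the 10 genes, the other family genes with a read and, per list, the 4 tested genes of highest mean FPKM and up to 4 called genes with the largest absolute log2 fold change. Neighbours were taken within 1 Mb and, as an alternative, 0.5 Mb. For likeness, the 3 nearest genes above a mean of 1 CPM are named. Positions of genes are on GRCm39, counted from 1; sequences are from GENCODE M21 and RefSeq on GRCm38, and the builds were not mixed.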

Additional observations from a re-analysis of the deposited data

How the results depend on the processing

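None of the 10 genes changed direction under any alternative run. Over the alternatives that kept all libraries, except the fit with a replicate block, Plxna1 ranged from 1.57 to 1.72 on the log2 scale. Over the same fits Sema4c ranged from 1.05 to 1.16. Sema5b ranged from -6.20 to -6.06, being below the minimum of the FPKM fits. Against a log2 fold change of 0.5 (glmTreat), 1221 genes were higher and 744 lower. Under that test 2 other semaphorins, 0 other plexins, 6 co-receptors, 3 neuropilin ligands, 1 protease, 6 GTPase genes and 2 effectors were called, against 4, 3, 12, 6, 5, 16 and 14. DESeq2 called 2 other semaphorins. Both limma fits on FPKM called 0 other semaphorins, of 1 tested, and 3 neuropilin ligands. In each of these counts of 0, by glmTreat and by limma, 0 genes had an unadjusted p under 0.05, while edgeR's test against no change gave 3 other plexins and 4 other semaphorins. Leaving out one library in turn gave 3512 to 4210 genes higher and 3188 to 4041 lower, and 12 to 20 effectors. The replicate numbers did not pair the libraries (correlations of deviations from -0.016 to 0.00189). With the replicate block 3848 genes were higher and 3679 lower, and 2 other plexins were called. Counts are low for Sema5b, Sema3g and Sema4g, where depth limits the precision.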
